A study of Homo sapiens with 4 samples.

Results

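The genes described here are 10 chemokine genes, *CXCL8*, *CXCL1*, *CXCL2*, *CXCL3*, *CXCL5*, *CXCL6*, *CCL2*, *CCL5*, *CCL20* and *CCL28*, out of 33694 genes in the count matrices. They were matched by symbol, each to a single row. They were selected on their UMI counts in treated cells relative to untreated cells, which were already known, so that their levels are a description and not a test. The cells were OVCA420, a line derived from ovarian carcinoma, in which TGF-β1, a secreted growth factor, was used to induce epithelial-to-mesenchymal transition (EMT). Cells were left untreated (Ctrl) or received TGF-β1 at 10 ng/mL for 1, 3 or 7 days, and single-cell 3′ RNA-seq was performed with 1 library per time point. All 4 libraries are of the same cell line, were collected at the same time, and carry no other labelled agent or genetic change. With 1 library per time point there is no replicate check, and no p-value is given.

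Chemokines are small secreted proteins that attract leukocytes along a gradient. The CXCL members that carry an ELR motif, namely *CXCL8*, *CXCL1*, *CXCL2*, *CXCL3*, *CXCL5* and *CXCL6*, bind the receptor CXCR2, some of them also CXCR1, and attract neutrophils. Among the CC members, *CCL2* attracts monocytes through CCR2, *CCL5* attracts T cells and monocytes, *CCL20* attracts CCR6-positive lymphocytes and dendritic cells, and *CCL28* is a mucosal chemokine that binds CCR10. Many of these genes are induced by NF-κB, and several of their mRNAs hold AU-rich elements and decay quickly. Ovarian cancer cells are a known source of CXCL8 and CXCL1.

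Part of each library was analysed, namely the first 3170 of the 10710 listed barcodes in barcode order. Of these cells, 933 Ctrl, 937 1-day, 705 3-day and 569 7-day cells were retained, with between 25382817 and 32949874 unique molecular identifiers (UMIs) per library and a median of 30270 to 43553 UMIs per cell. The 4 libraries share 1 to 7 cell barcodes per pair. Epithelial markers summed to between 3774 and 5483 CPM, although *MUC16* and *PAX8*, which mark ovarian carcinoma, were near 0 (at most 2.97 and 0.333 CPM). Leukocyte markers summed to at most 0.767 CPM, with *PTPRC* at 0 in the treated libraries. Fibroblast markers summed to at most 1.37 CPM, and endothelial markers to 5.40 CPM in Ctrl, nearly all from *CDH5*, and to at most 0.473 CPM after treatment. The 5 TGF-β1 response genes checked were between 1.90 and 5.20 log2 units above Ctrl at 7-day.

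The CXCL genes form a cluster on chromosome 4 of GRCh38, and 6 of them lie within 359 kb. *CXCL8* (ENSG00000169429) is at chr4:73740519-73743716, *CXCL6* (ENSG00000124875) at chr4:73836640-73849064, and *CXCL1* (ENSG00000163739) at chr4:73869393-73871308, all on the plus strand. *CXCL5* (ENSG00000163735) at chr4:73995642-73998677, *CXCL3* (ENSG00000163734) at chr4:74036589-74038807 and *CXCL2* (ENSG00000081041) at chr4:74097040-74099196 lie on the minus strand. *CCL2* (ENSG00000108691, chr17:34255274-34257208) and *CCL5* (ENSG00000271503, chr17:35871491-35880793) are 1.61 Mb apart on chromosome 17. *CCL20* (ENSG00000115009) is at chr2:227805739-227817564 and *CCL28* (ENSG00000151882) at chr5:43376645-43412391.

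The stretches of 100 bases before the RefSeq start sites (GRCh38.p14) are shown because 6 of the members share a run of letters there that the choice of members did not use. Capitals mark the letters GGAATTTCC, which fit the NF-κB consensus, and each stretch is written 5′ to 3′ on the strand of its gene.
*CXCL8*, chr4:73740469-73740568, plus strand: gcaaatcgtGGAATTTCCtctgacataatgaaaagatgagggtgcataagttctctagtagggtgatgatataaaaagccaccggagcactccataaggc
*CXCL1*, chr4:73869293-73869392, plus strand: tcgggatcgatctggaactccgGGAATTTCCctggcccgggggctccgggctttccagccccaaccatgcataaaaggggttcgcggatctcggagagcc
*CXCL2*, chr4:74099196-74099295, minus strand: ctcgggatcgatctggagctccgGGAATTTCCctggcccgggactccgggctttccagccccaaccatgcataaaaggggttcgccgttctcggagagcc
*CXCL3*, chr4:74038690-74038789, minus strand: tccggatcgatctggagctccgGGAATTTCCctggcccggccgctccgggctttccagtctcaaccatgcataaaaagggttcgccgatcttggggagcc
*CXCL5*, chr4:73998678-73998777, minus strand: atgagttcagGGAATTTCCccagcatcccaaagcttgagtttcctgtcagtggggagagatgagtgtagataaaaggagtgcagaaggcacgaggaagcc
*CXCL6*, chr4:73836578-73836677, plus strand: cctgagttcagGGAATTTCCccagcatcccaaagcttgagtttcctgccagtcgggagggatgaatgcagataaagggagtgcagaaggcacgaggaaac
*CCL20*, chr2:227813742-227813841, plus strand: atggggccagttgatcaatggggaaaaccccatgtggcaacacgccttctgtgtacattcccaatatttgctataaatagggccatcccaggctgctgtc

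The letters GGAATTTCC were searched on both strands in the 250 bases before the start site, and were found in 0.413% of 35116 RefSeq promoters. In the 6 CXCL members they begin between 77 and 91 bases before the start site, and *CCL20* and *CCL28* do not hold them. Only these exact letters were searched, so that NF-κB sites with other letters would be missed in any of the genes. The AP-1 letters TGANTCA were found in *CXCL8* only, 137 bases before its start (6.57% of all promoters hold them), and the letters TATAAA in *CXCL8* and *CCL20* (10.7% of all promoters). The start sites in GENCODE differ by more than 1 base for *CXCL8*, *CXCL3*, *CXCL6* and *CCL20*. By the GENCODE positions given above, the printed stretches of *CXCL3* and *CCL20* lie wholly within the gene, and those of *CXCL8* and *CXCL6* in part. They are thus upstream of the RefSeq start only. The members of this cluster are not independent sequences. Over the printed stretches, *CXCL1* and *CXCL2* are 94.1% identical, *CXCL1* and *CXCL3* 90.0%, *CXCL2* and *CXCL3* 89.1%, and *CXCL5* and *CXCL6* 90.1%, whereas *CXCL8* and *CXCL1* are 45.3% identical. The transcripts are also alike. The longest run of identical bases is 178 for *CXCL2* and *CXCL3*, 77 for *CXCL1* and *CXCL2*, 55 for *CXCL1* and *CXCL3*, and 45 for *CXCL5* and *CXCL6*. In the last 400 bases, from which 3′ reads mostly come, it is 55, 77, 55 and 33, respectively. Reads within such runs cannot be assigned to a single gene, and the split of UMIs among *CXCL1*, *CXCL2* and *CXCL3* is uncertain to that extent.

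At 7-day, 8 of the 9 measured chemokine genes were at least 2-fold above Ctrl, beside 12.9% of all measured genes, and their sum was 5.01-fold higher. Of the 8, *CCL2* and *CCL5* passed the filter on low levels only through the treated libraries, so that their calls are partly fixed by it. Without cells that hold proliferation UMIs (at least 2 of *MKI67* and *TOP2A* together), 5 of the 9 were at least 2-fold above Ctrl. The share of all measured genes in the remaining cells was not computed. The path to that level was not monotonic. At 1-day the sum was lower than in Ctrl, as were 5 of the CXCL genes by at least 2-fold, beside 10.6% of all measured genes. *CCL2* and *CCL5* were at least 2-fold higher, beside 10.2% of all measured genes, with most of their 1-day UMIs in a single cell each. All levels are given as CPM, that is the summed UMIs of a gene scaled to the total UMIs of its library, and the 95% Poisson intervals in parentheses cover counting error only. Each UMI marks a molecule tagged near its 3′ end, so that CPM of different genes were compared without division by gene length.

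**Figure D1:**
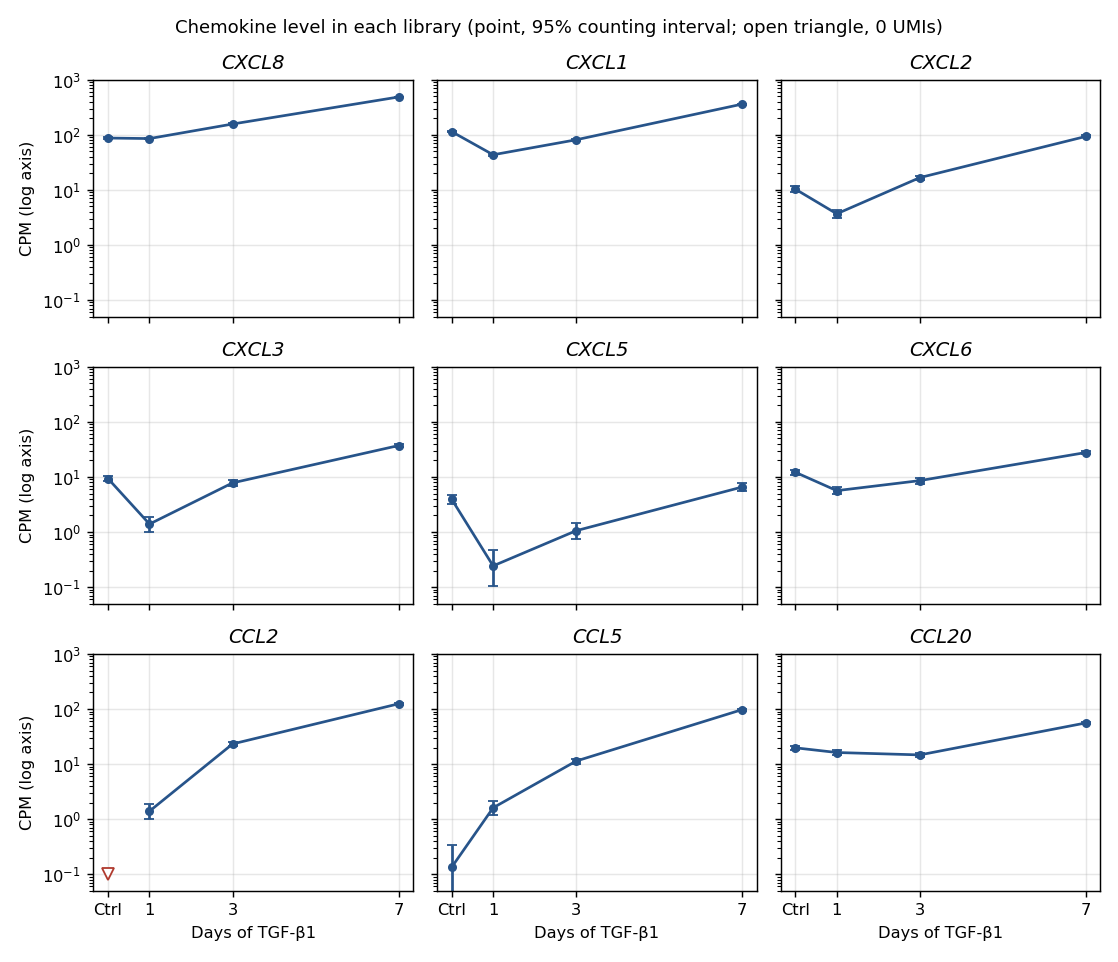
Level of 9 chemokine genes in CPM (log axis) against days of TGF-β1, with Ctrl at 0 and 1 library per point. Points are CPM of the summed UMIs, bars are 95% Poisson intervals (counting error only), and the open triangle marks *CCL2* in Ctrl at 0 UMIs, drawn at the level of 3 UMIs. *CXCL1*, *CXCL2*, *CXCL3*, *CXCL5* and *CXCL6* dip at 1-day and are highest at 7-day, while *CCL2* and *CCL5* are higher at each successive time point.

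Summed over the 10 members, the level was 258 CPM in Ctrl (251.8 to 263), 159 CPM at 1-day (155 to 163), 321 CPM at 3-day (315 to 328) and 1291 CPM at 7-day (1277 to 1305). *CXCL8* and *CXCL1* together gave most of these UMIs in every library. *CXCL1* held 44.4% of the members' UMIs in Ctrl and *CXCL8* 33.9%, whereas after treatment *CXCL8* held the largest share, namely 53.7%, 48.8% and 37.7% at the successive time points. *CCL2* and *CCL5* together were absent from this sum in Ctrl, but for 4 UMIs of *CCL5*, and held 9.65% and 7.57% of it at 7-day.

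*CXCL8*, which encodes interleukin-8, was at 87.3 CPM in Ctrl (84.0 to 90.7), 85.4 CPM at 1-day (82.3 to 88.6), 157 CPM at 3-day (153 to 161) and 487 CPM at 7-day (478 to 495). Its Ctrl and 1-day intervals overlapped, and its 7-day level was 5.57-fold that of Ctrl. *CXCL1*, a ligand of CXCR2, was at 114 CPM in Ctrl (111 to 118), 43.4 CPM at 1-day (41.1 to 45.7), 81.2 CPM at 3-day (78.1 to 84.4) and 361 CPM at 7-day (354 to 369). Relative to Ctrl its log2 ratio was -1.40 at 1-day, and at 7-day it was 3.16-fold higher. In Ctrl, *CXCL1* was higher than *CXCL8*, and in each treated library *CXCL8* was higher than *CXCL1*, with intervals that do not overlap.

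*CXCL2*, a close paralog of *CXCL1*, was at 10.3 CPM in Ctrl (9.22 to 11.6), 3.67 CPM at 1-day (3.05 to 4.39), 16.7 CPM at 3-day (15.3 to 18.2) and 93.5 CPM at 7-day (89.8 to 97.3). *CXCL3*, the third gene of this group, was at 9.37 CPM in Ctrl (8.30 to 10.5), 1.40 CPM at 1-day (1.02 to 1.86), 7.81 CPM at 3-day (6.87 to 8.84) and 37.2 CPM at 7-day (34.9 to 39.7). *CXCL2* therefore lay above its Ctrl level from 3-day on, although its 3-day log2 ratio to Ctrl was -0.15 without cells that hold proliferation UMIs, and *CXCL3* did so at 7-day, where they were 9.05-fold and 3.97-fold above Ctrl, respectively. *CXCL5*, which attracts neutrophils, had the lowest levels of the cluster, with 3.97 CPM in Ctrl (3.29 to 4.75), 0.243 CPM at 1-day (8 UMIs), 1.06 CPM at 3-day (0.733 to 1.48) and 6.58 CPM at 7-day (5.62 to 7.66). *CXCL6*, its paralog, was at 12.2 CPM in Ctrl (11.0 to 13.5), 5.64 CPM at 1-day (4.86 to 6.52), 8.59 CPM at 3-day (7.60 to 9.66) and 27.8 CPM at 7-day (25.8 to 29.9). *CXCL5* had the deepest dip, a log2 ratio of 1-day to Ctrl of -4.03 (-5.28 to -3.01), and at 7-day it was 1.66-fold above Ctrl, which is under 2-fold.

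*CCL2*, a monocyte attractant, had 0 UMIs in Ctrl, which allows up to 0.100 CPM (3 counts), and was at 1.40 CPM at 1-day (1.02 to 1.86), 23.2 CPM at 3-day (21.6 to 24.9) and 125 CPM at 7-day (120 to 129). Against this floor of 3 counts in the Ctrl library, it was at least 1246-fold higher at 7-day. *CCL5*, a T cell and monocyte attractant, was at 0.133 CPM in Ctrl (4 UMIs, 0.0363 to 0.341), 1.61 CPM at 1-day (1.20 to 2.10), 11.4 CPM at 3-day (10.2 to 12.6) and 97.7 CPM at 7-day (93.9 to 102). The log2 ratio of its 7-day level to Ctrl was 9.52, with a wide interval of 8.16 to 11.39 that comes from the 4 Ctrl UMIs. Both genes were thus higher at each successive time point. With 0 and 4 UMIs in Ctrl, a dip at 1-day could not have been seen for either gene. Most of their 1-day UMIs lay in a single cell each. *CCL20* was at 19.8 CPM in Ctrl (18.2 to 21.4), 16.2 CPM at 1-day (14.9 to 17.7), 14.7 CPM at 3-day (13.4 to 16.1) and 55.9 CPM at 7-day (53.1 to 58.9). Its 1-day and 3-day intervals overlapped, and at 7-day it was 2.83-fold above Ctrl. *CCL28* had 1 UMI each in the Ctrl and 3-day libraries and 0 in the other two, and was not detectable above the floor of 3 counts at this depth. It is not among the 9 members that passed the filter of a mean of at least 1 CPM over the 4 libraries, and 12694 genes passed this filter.

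At 1-day, 2 of the 9 measured members (*CCL2* and *CCL5*) were at least 2-fold above Ctrl, beside 10.2% of all measured genes, and 5 (*CXCL1*, *CXCL2*, *CXCL3*, *CXCL5* and *CXCL6*) were at least 2-fold below, beside 10.6%. At 3-day, *CCL2* and *CCL5* were at least 2-fold above Ctrl, beside 10.9% of all measured genes, and *CXCL5* was at least 2-fold below, beside 8.54%. At 7-day, 8 members were at least 2-fold above Ctrl, beside 12.9% of all measured genes, and 0 were at least 2-fold below, beside 7.85%. From 1-day to 7-day their median log2 ratio to Ctrl was -1.11, -0.26 and 1.99, against -0.07, 0.01 and 0.08 over all measured genes. These comparisons share the Ctrl library, and the members were chosen with them in view. *CCL2* and *CCL5*, with 0 and 4 UMIs in Ctrl, passed the filter only through the treated libraries. Their calls as higher than Ctrl at each time point are therefore partly fixed by the filter. Between consecutive time points, 5 members (*CXCL2*, *CXCL3*, *CXCL5*, *CCL2* and *CCL5*) were at least 2-fold higher at 3-day than at 1-day, beside 5.69% of all measured genes, and 0 were at least 2-fold lower, beside 4.44%. All 9 were at least 2-fold higher at 7-day than at 3-day, beside 2.49% of all measured genes, and 0 were at least 2-fold lower, beside 1.67%. The folds ranged from 3.10 for *CXCL8* to 8.61 for *CCL5*.

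The counting intervals are narrower than the differences between parts of the same library. When the retained cells were divided in barcode order, the summed level was 181 CPM in the first part of the 1-day cells and 139 CPM in the second, and 1151 and 1432 CPM at 7-day. *CCL2* differed more, with 2.50 and 0.353 CPM in the first and second part of the 1-day cells, and 34.6 and 12.2 CPM at 3-day. The 1-day sum was below Ctrl and the 7-day sum above Ctrl in both parts. In the second part of the 1-day cells *CCL2* had 6 UMIs, against 0 in Ctrl. With Ctrl set to the floor of 3 counts, its fold was under 2 there, and the floor limits the fold that can be seen.

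Cells differed in proliferation genes as well. At least 2 UMIs of *MKI67* and *TOP2A* together, which mark cycling cells, were found in 87.7%, 33.1%, 62.8% and 74.3% of the cells from Ctrl to 7-day. Cells with fewer than 2 of them are called cells without these UMIs, or without proliferation UMIs, throughout. In each library the members' sum was higher in the cells without these UMIs, at 496 against 230 CPM in Ctrl, 188 against 106 CPM at 1-day, 444 against 259 CPM at 3-day and 1847 against 1122 CPM after 7 days. The folds were 2.16 (2.04 to 2.28), 1.76 (1.66 to 1.88), 1.72 (1.65 to 1.79) and 1.65 (1.61 to 1.68). At 7-day the difference was widest for *CCL5*, at 205 CPM without and 65.0 CPM with these UMIs (3.16-fold), and for *CCL2*, at 219 and 95.7 CPM (2.29-fold).

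*CXCL6* went the other way in the treated libraries. It was at 17.0 CPM in 7-day cells without proliferation UMIs and 31.1 CPM in those with them, and at 4.52 and 7.68 CPM at 1-day. At 7-day *CXCL2* and *CCL20* were at nearly the same level in either set of cells, with folds of 0.98 (0.89 to 1.08) and 0.94 (0.83 to 1.07). Among cells without these UMIs, of which 115 were from Ctrl, 5 members (*CXCL8*, *CXCL2*, *CXCL3*, *CCL2* and *CCL5*) remained at least 2-fold above Ctrl at 7-day in place of 8, and the 3-day sum was 0.16 log2 units below Ctrl in place of 0.32 above. The share of all measured genes at least 2-fold above Ctrl was not computed in this set of cells. Cells without these UMIs were also shallower, with a median of 26589 against 31135 UMIs in Ctrl and 40411.5 against 44930 at 7-day, and the part of depth in the division was not tested.

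Since the libraries differ in depth, cells were thinned to 18000 UMIs before the share with at least 1 UMI was taken, and from Ctrl to 7-day 89, 37, 28 and 20 shallower cells were left out. *CXCL8* was found in 45.9%, 43.8%, 63.5% and 92.9% of the cells from Ctrl to 7-day. *CXCL1* was found in 50.2%, 26.3%, 48.0% and 88.5% of the cells, in the same order. These 2 genes were thus found in most 7-day cells, and *CXCL2* in 60.8% of them (56.6 to 64.9, exact binomial), from 9.60% in Ctrl and 3.78% at 1-day.

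**Figure D2:**
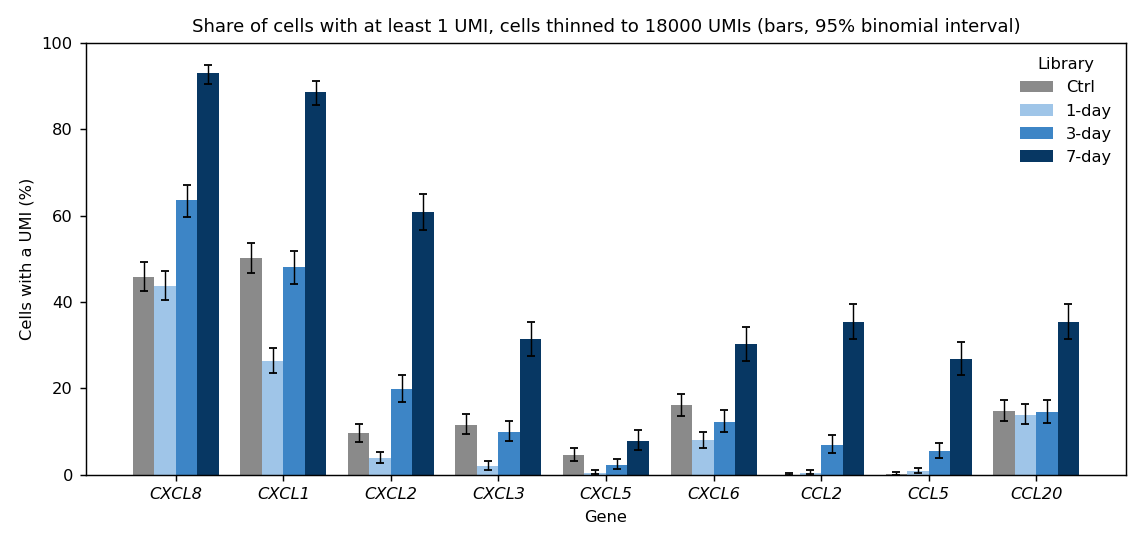
Share of cells with at least 1 UMI of each chemokine gene (percent), in each library after thinning to 18000 UMIs per cell. Bars are shares with exact binomial 95% intervals over 844 Ctrl, 900 1-day, 677 3-day and 549 7-day cells, and for each gene the 7-day bar is the highest, from 7.83% for *CXCL5* to 92.9% for *CXCL8*.

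*CCL2* was found in 0 of 844 thinned Ctrl cells, and in 0.444%, 6.94% and 35.3% of the cells at the successive time points. *CCL5* was found in 0.118%, 0.778%, 5.47% and 26.8% of the cells. Before thinning, *CCL2* was in 0 of 933 Ctrl cells, which allows a share of up to 0.322% (3 counts of the total), and in 54.3% of 7-day cells. *CCL20* stayed between 13.9% and 14.7% from Ctrl to 3-day and was found in 35.3% of 7-day cells. For *CXCL3*, *CXCL6* and *CXCL5* the 7-day shares were 31.3%, 30.2% and 7.83%, against 11.6%, 16.1% and 4.62% in Ctrl. With at least 2 UMIs required, the 7-day shares were 82.7% for *CXCL8*, 18.6% for *CCL2* and 14.8% for *CCL5*. No cell type that should lack these genes was in the libraries, so that the share due to free RNA was not tested.

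The share of cells and the level per positive cell moved differently among the members. Among thinned cells with a UMI, the mean count of *CXCL8* was 3.39 UMIs in Ctrl and 9.23 at 7-day, and that of *CXCL1* was 4.03 and 7.19. For *CCL2* the mean per positive cell was 5.94 UMIs at 3-day and 5.96 at 7-day, while its share of positive cells was 6.94% and 35.3%. The 3-day to 7-day difference of *CCL2* thus lay in the number of positive cells. For *CCL5* both were higher at 7-day, with means of 3.43 and 6.65 UMIs per positive cell.

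The UMIs of a gene can be spread over most cells or lie in few of them. The 5% of 7-day cells with the most UMIs of *CCL5* (28 cells) held 69.2% of its UMIs, and the corresponding share was 60.8% for *CCL2*, 57.5% for *CXCL5*, 46.1% for *CCL20*, 42.1% for *CXCL3*, 31.4% for *CXCL6*, 29.0% for *CXCL1*, and 24.8% for *CXCL8* and for *CXCL2*. *CCL2* and *CCL5* had the highest shares. The most positive cells held 356 UMIs of *CCL5*, 271 of *CXCL8*, 260 of *CXCL1* and 187 of *CCL2*. The variance of the thinned counts over their mean was 41.5 for *CCL5*, 18.5 for *CCL2*, 14.6 for *CXCL8* and 12.4 for *CXCL1*, where counting alone gives a ratio near 1. For the remaining measured members it lay between 1.48 (*CXCL5*) and 5.85 (*CCL20*). The high share of *CXCL5* thus went with few UMIs and a ratio near that of counting alone.

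**Figure D3:**
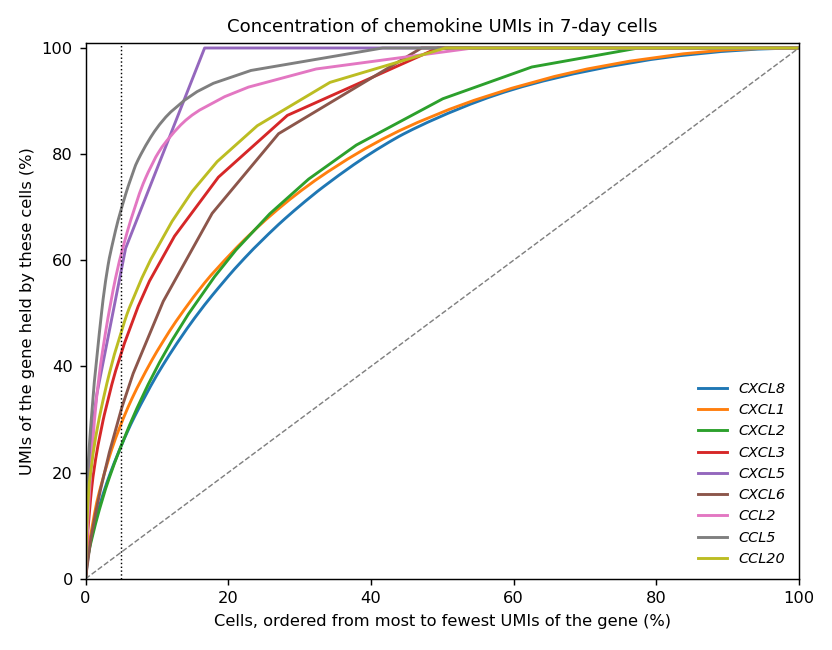
Cumulative share of the UMIs of each chemokine gene (percent, vertical axis) held by the 7-day cells, ordered from most to fewest UMIs of that gene (percent of 569 cells, horizontal axis). The dotted line marks the top 5% of cells, where the curves of *CCL5* and *CCL2* stand at 69.2% and 60.8% and those of *CXCL8* and *CXCL2* at 24.8%, and the dashed line is an equal share in every cell.

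Earlier in treatment the CC genes rested on even fewer cells. At 1-day, 1 cell held 38 of the 46 *CCL2* UMIs and 1 cell held 31 of the 53 *CCL5* UMIs, so that most of the UMIs behind the 1-day values of both genes lie in a single cell each. At 3-day, 50% of the *CCL2* UMIs lay in 6 cells and 50% of the *CCL5* UMIs in 3 cells, compared to 19 and 13 cells at 7-day. Without the top 5% of cells by the gene itself, an alternative chosen after seeing the data, *CCL5* was at 1.13 CPM at 3-day and 31.9 CPM at 7-day, and *CCL2* at 1.41 and 51.8 CPM. For *CXCL8* the top 5% of cells held 42.3%, 38.9%, 31.3% and 24.8% of its UMIs from Ctrl to 7-day. From 1-day to 7-day this share was lower as more cells were positive, while from Ctrl to 1-day both shares were lower. The variance over the mean of the thinned *CXCL8* counts was highest at 7-day, at 6.01, 5.80, 6.51 and 14.6 from Ctrl to 7-day, so that the 2 measures differ. The share of *CXCL1* was highest at 1-day (56.3%), when its level was lowest, while its variance over the mean was highest at 7-day (12.4).

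The 28 7-day cells with the most *CCL5* had 0 UMIs of all 7 leukocyte markers, and 4077 CPM of the epithelial markers against 4000 CPM in the whole library. The 28 cells with the most *CCL2* likewise had 0 UMIs of the leukocyte markers and 4261 CPM of the epithelial markers. The 4 fibroblast markers had 4 UMIs in the *CCL5* set (2.74 CPM) and 2 UMIs in the *CCL2* set (1.39 CPM), against 0.276 CPM in the whole library, and their part in the result was not tested. The endothelial markers had 0 UMIs in both sets. At 3-day, the 35 cells with the most *CCL5* and the 35 with the most *CCL2* had 2 UMIs each of the leukocyte markers (0.999 and 1.17 CPM, against 0.342 in the library), and 2 and 3 UMIs of the endothelial markers (0.999 and 1.75 CPM, against 0.311). Their part in the 3-day result was not tested. The 7-day sets of 28 cells were deeper than the rest of that library, with a median of 53991.5 UMIs for *CCL5* against 43123, and 50744.5 for *CCL2* against 43147. They held 2 and 0 of the 11 cells that the doublet caller Scrublet marked at 7-day, and the shares after thinning were 73.5% for *CCL5* and 59.1% for *CCL2*.

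Co-expression was measured as Pearson's r of log-normalized values across the thinned cells of a library, for pairs in which each gene was found in at least 20 cells. Cells of a library share its free RNA and preparation, so that r is given as a description. At 7-day (549 cells) the highest r was that of *CXCL1* and *CXCL3* (0.50), followed by *CXCL8* and *CXCL1* (0.39), *CXCL8* and *CCL20* (0.35), *CXCL1* and *CXCL2* (0.35), *CXCL8* and *CXCL2* (0.33), *CXCL2* and *CXCL3* (0.32), *CXCL8* and *CXCL3* (0.31), and *CCL2* and *CCL5* (0.29). The r of *CXCL1* with *CXCL2* and *CXCL3* includes any reads that their shared runs of sequence assign to the wrong gene, and that part was not tested. *CXCL8*, with a longest run of 18 identical bases shared with *CXCL3*, is not subject to it to the same degree.

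**Figure D4:**
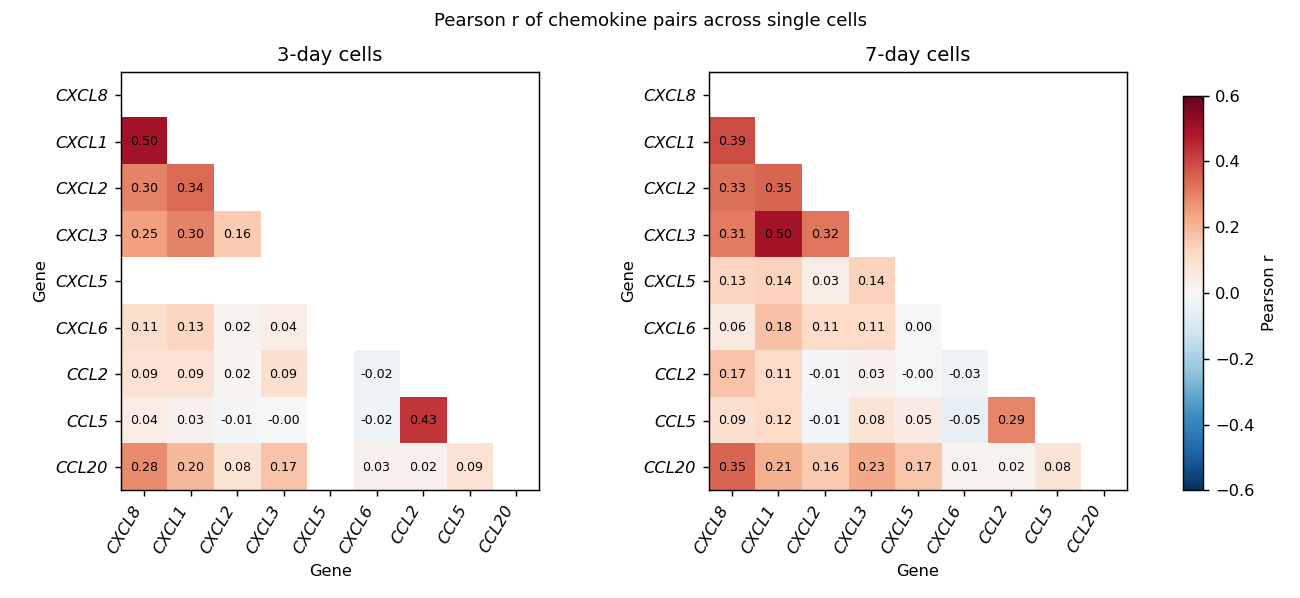
Pearson r of each pair of chemokine genes across single cells of the 3-day (677 cells) and 7-day (549 cells) libraries, after thinning; color gives r from -0.6 to 0.6. Blank squares below the diagonal are pairs with a gene found in fewer than 20 cells. *CXCL8*, *CXCL1*, *CXCL2* and *CXCL3* form a block with r of 0.31 to 0.50 at 7-day, and *CCL2* with *CCL5* stands apart from it.

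*CXCL8* and *CXCL1* were co-expressed in every library, with r of 0.42, 0.44, 0.50 and 0.39 from Ctrl to 7-day. In Ctrl, *CXCL1* was found in 64.3% of *CXCL8*-positive cells and in 38.3% of *CXCL8*-negative cells. *CCL2* and *CCL5* had r of 0.43 at 3-day and 0.29 at 7-day, and at 7-day *CCL5* was found in 38.1% of *CCL2*-positive cells and in 20.6% of *CCL2*-negative cells. The 3-day value rests on few cells, with 47 positive for *CCL2*, 37 for *CCL5* and 12 for both. By ranks (Spearman's rho) the values were closer, at 0.25 at 3-day and 0.23 at 7-day. Of the 27 thinned 7-day cells with the most *CCL2*, 7 were among the 27 with the most *CCL5*. With the CXCL genes these 2 genes had r between -0.05 (*CXCL6* and *CCL5*) and 0.17 (*CXCL8* and *CCL2*) at 7-day. Of the 27 cells with the most *CXCL8*, 1 was among the 27 with the most *CCL2* and 3 were among the 27 with the most *CCL5*. The overlap that unrelated genes would give was not computed.

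By position, the median r was 0.14 over the 15 pairs within the chromosome 4 cluster and 0.08 over the 21 other pairs at 7-day, and 0.20 and 0.06 over 10 and 18 pairs at 3-day. *CXCL5* and *CXCL6*, whose printed stretches are 90.1% identical, had r of 0.00 at 7-day, where 13 cells held both, and of -0.01 in Ctrl. Their means were 0.10 and 0.53 UMIs per thinned 7-day cell. At counts this low, counting error lowers r, so that co-expression of this pair could be missed. The medians by position include pairs with these 2 genes, and the part of low counts in them was not tested. *CXCL8* and *CCL20*, which lie on different chromosomes, had r of 0.28 at 3-day and 0.35 at 7-day.

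All 10 members, *CCL28* included, were counted in each thinned cell. The number found in the same cell had a median of 1 in Ctrl and at 1-day, 2 at 3-day and 4 at 7-day. From Ctrl to 7-day, none was found in 24.6%, 38.7%, 17.4% and 0.911% of the cells. At least 5 were found in 2.37%, 0.556%, 4.58% and 39.5% of them, and no cell held as many as 9.

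**Figure D5:**
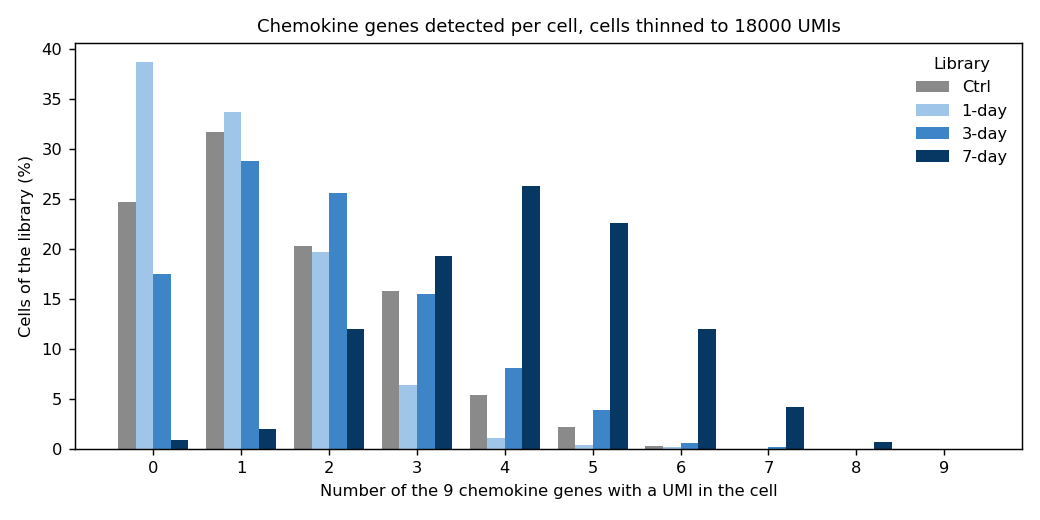
Share of the cells of each library (percent) by the number of chemokine genes with a UMI, after thinning to 18000 UMIs per cell. The axis names 9 genes, but all 10 members were counted, and *CCL28* had a UMI in 1 thinned 3-day cell only. The 1-day cells are highest at 0 genes (38.7%), and the 7-day cells peak at 4 genes (26.2%) with 0.911% at 0.

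For each member, the 5 genes of highest r across 7-day cells were taken from 10758 genes found in at least 5% of them. For *CXCL8* these were *CXCL1*, *CCL20*, *IL1A* (interleukin-1α, r of 0.33), *CXCL2* and *EREG* (epiregulin, an EGF receptor ligand, 0.32), where the 99th percentile over all genes was 0.17. *IL1A* and *EREG* had r of 0.23 and 0.20 with *CXCL8* at 3-day. For *CXCL1* they were *CXCL3*, *CXCL8*, *CXCL2*, *CSF1* (macrophage colony-stimulating factor, 0.27) and *PLAU* (urokinase, 0.26), and *CSF1* and *PLAU* had 0.09 and 0.25 at 3-day. For *CXCL2* they were *CXCL1*, *CXCL8*, *CXCL3*, *NFKBIA* (the NF-κB inhibitor IκBα, 0.21) and *ADGRL1* (0.19), and at 3-day *NFKBIA* had 0.23 and *ADGRL1* -0.01. For *CXCL3* they were *CXCL1*, *CXCL2*, *CXCL8*, *BIRC3* (an inhibitor of apoptosis, 0.28, and 0.16 at 3-day) and *CCL20*. For *CCL20* they were *CXCL8*, *CXCL3*, *AREG* (amphiregulin, 0.22), *SOD2* (mitochondrial superoxide dismutase, 0.22) and *CXCL1*, and at 3-day *AREG* and *SOD2* had 0.14 and 0.13. The neighbours of these 5 members were thus largely one another.

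*CCL2* and *CCL5* had other neighbours, and shared *MMP9*, a gelatinase that can cleave chemokines, and *CLDN18*, a tight junction claudin. At 3-day *CCL5* and *CCL2* were found in only 37 and 47 of 677 thinned cells, so that their r values there rest on few cells. *MMP9* had r of 0.44 with *CCL5* and 0.37 with *CCL2* at 7-day, and 0.36 and 0.56 at 3-day. *CLDN18* had r of 0.42 with *CCL5* and 0.31 with *CCL2* at 7-day, and 0.22 and 0.34 at 3-day. The other genes were *C15orf48* (0.43), *ITGA5* (the fibronectin receptor subunit, 0.41) and *MMP10* (stromelysin 2, 0.37) for *CCL5*, with 0.26, 0.31 and 0.07 at 3-day. For *CCL2* they were *PODXL* (podocalyxin, 0.36), *RFTN1* (0.32) and *SERPINA1* (α1-antitrypsin, 0.30), with 0.43, 0.30 and 0.16 at 3-day. For *CXCL6* the genes were *MKI67* (0.22), *DBF4* (a regulator of DNA replication, 0.21), *CISD2*, *HNRNPD* and *CDK6* (each 0.21), and at 3-day their r lay between -0.06 and 0.08. For *CXCL5* they were *CITED2*, *HACE1*, *MAP3K10*, *NLRP7* and *LCOR*, with r of 0.18 to 0.21 at 7-day. At 3-day their r was -0.05 to 0.04, but *CXCL5* was found in only 15 of 677 thinned cells there. Without thinning, 0 of the 5 genes for *CXCL5* and 1 of the 5 for *CXCL6* were again among the 5 highest, compared to 4 or 5 for each other member.

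The receptors of these chemokines were at or near 0. Of 11 receptor genes, *CXCR1* and *CXCR2* had at most 0.0622 and 0.0333 CPM in any library, *CCR2* was at 0 in all libraries, and *CCR10*, named after its values were seen, was the 1 gene that passed the filter, with 0.733 CPM in Ctrl against 2.44 CPM at 7-day. *CCR10* passed only through its 3-day and 7-day levels (1.31 and 2.44 CPM), so that its higher 7-day level is partly fixed by the filter. Of 34 other chemokine genes, 5 passed the filter. *CXCL16*, a transmembrane chemokine, was at 46.2, 20.8, 45.1 and 66.2 CPM from Ctrl to 7-day. *CCL15* was lower at 7-day (10.3 CPM) than in Ctrl (56.2 CPM), a log2 ratio of -2.45, and *CX3CL1* (fractalkine) had 21.4 CPM in Ctrl against 11.2 CPM after 7 days. *CCL26* (eotaxin-3), named after its values were seen, was the 1 of these 5 genes at least 2-fold higher at 7-day, at 10.0 against 0.800 CPM. It passed the filter only through the treated libraries, so that its call is partly fixed by the filter. *CCL15* was the 1 at least 2-fold lower, and the shares of all measured genes were 12.9% higher and 7.85% lower. The remaining gene of the 5, *CXCL14*, likewise named after its values were seen, was at 0.233, 2.76, 2.64 and 0.315 CPM from Ctrl to 7-day. It passed the filter only through its 1-day and 3-day levels. Genes under the filter, named in the same way, went in both directions. *CCL3* had 0 UMIs in Ctrl and 91 at 7-day, *CXCL10* 2 and 65, and *CXCL11* 0 and 32. By contrast, *CCL14* had 13 and 4 UMIs, *CCL17* 10 and 2, *CXCL17* 10 and 4, and *CCL16* 8 and 1.

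Of 16 NF-κB subunits and target genes, all of which passed the filter, 12 were at least 2-fold above Ctrl at 7-day and 0 below, beside 12.9% and 7.85% of all measured genes, with a median log2 ratio of 1.54 against 0.08 over all measured genes. Of the 12, *NFKB1*, *NFKBIA* and *RELA*, named after their values were seen, were close to the 2-fold limit, which is a log2 ratio of 1. Their log2 ratios were 1.01 (0.90 to 1.12), 1.02 (0.91 to 1.12) and 1.04 (0.92 to 1.16), with counting intervals that include the limit. The highest of the 16 were *TRAF1* (a TNF receptor adaptor), *ICAM1* (a leukocyte adhesion molecule) and *TNFAIP3* (the NF-κB inhibitor A20), with log2 ratios of 5.42, 4.50 and 4.37. The lowest were *REL* (0.28), *BCL3* (0.47) and *NFKBIZ* (0.60). At 1-day, 4 were at least 2-fold above Ctrl and 1, *BIRC3*, at least 2-fold below, beside 10.2% and 10.6% of all measured genes. *BIRC3* was at 12.4, 2.15, 8.18 and 39.3 CPM from Ctrl to 7-day, the order of levels that *CXCL3* also had.

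Of 13 cytokine genes known to raise chemokine mRNA, 8 passed the filter, and all 8 were at least 2-fold above Ctrl at 7-day, beside 12.9% of all measured genes. Some of them, such as *IL6* with 2 UMIs in Ctrl and 203 at 7-day, passed the filter only through the later libraries, so that this count is partly fixed by the filter. *TNF* was at 0.200 (6 UMIs), 2.61, 17.4 and 30.4 CPM from Ctrl to 7-day, and *IL32* at 3.93, 33.2, 265 and 395 CPM. *IL1A*, also among the neighbours of *CXCL8*, was at 14.8, 23.2, 35.1 and 84.5 CPM, and *IL18* at 35.5, 150.1, 171 and 116 CPM. These 4 genes were above Ctrl at 1-day already. Over the list, 4 of the 8 were at least 2-fold higher and 1 lower at 1-day, beside 10.2% and 10.6% of all measured genes. The lower gene was *IL1B*, named after its values were seen, with 42 UMIs in Ctrl, 2 at 1-day and 12.9 CPM at 7-day.

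Of 10 factors that bind AU-rich mRNA or otherwise regulate mRNA decay, 2 were at least 2-fold higher and 1 lower at 7-day, shares close to the 12.9% and 7.85% of all measured genes. *ZFP36* (tristetraprolin), which promotes decay of AU-rich mRNA, was at 36.9, 73.1, 38.5 and 16.9 CPM from Ctrl to 7-day. It was thus highest at 1-day and lowest at 7-day. *ZC3H12A* (regnase-1) and *ZFP36L1* had log2 ratios of 7-day to Ctrl of 1.42 and 1.32 and *TIA1* of 0.62, and *ZFP36L2* and *HNRNPD* had -0.91 and -0.23. Among the proteases and proteoglycans that act on chemokines, 5 of 9 measured genes were at least 2-fold above Ctrl at 7-day and 1 below, beside 12.9% and 7.85% of all measured genes. The 5 include *MMP1*, which passed the filter only through its 7-day level of 9.85 CPM, and *MMP2*, which passed it only through the treated libraries. *MMP9* was at 2.10 CPM in Ctrl and reached 81.2 CPM at 7-day, *MMP14* at 20.7 and 112 CPM, and *MMP2* at 0 UMIs in Ctrl and 95.9 CPM at 7-day. *GPC1* (glypican 1) was lower, at 107 and 37.6 CPM, and *ADAM17* and *SDC1* (syndecan 1) had log2 ratios of 0.20 and 0.30. These lists were chosen with earlier results in view.

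Of the measured genes with a promoter in the RefSeq table, 50 hold the letters GGAATTTCC, 44 of them outside the members. Of these 44 genes, 8 (18.2%) were at least 2-fold above Ctrl at 7-day, compared to 12.5% of the 9232 measured genes with a promoter in the table. From 3-day to 7-day the shares were 11.4% (5 genes) and 2.23%. At 1-day, 15.9% of the 44 genes were at least 2-fold above Ctrl and 9.09% below, against 9.56% and 9.88%. Most of the 44 genes were thus under 2-fold from Ctrl at each of these time points.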

How the data were processed

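Single-cell suspensions of OVCA420 cells were processed with a 10x Genomics 3′ kit. The authors aligned reads to GRCh38 with CellRanger 2.0.1 and deposited the UMI counts, which were not normalized. The matrices hold part of the listed cells, in barcode order, and the last cell of each was incomplete and left out. Cells with more than 200 genes and at most 20% mitochondrial UMIs were retained (3144 of 3170), and the mitochondrial limit was set here. Scrublet in scanpy 1.11.5 marked 40 cells (1.27%), which were retained. The members and all gene lists were chosen with earlier results of these data known.

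UMIs were summed per library and scaled to CPM, with exact Poisson intervals and exact conditional intervals for ratios. Genes with a mean of at least 1 CPM over the libraries were measured. A gene at or below 3 counts was set to 3 for fold changes. Shares of cells have exact binomial intervals. Cells were thinned to 18000 UMIs, and log-normalized values (a natural log of the count scaled to 10000 per cell, with 1 added) were used for r. The named genes are the members, for each list up to 3 genes at either end of the log2 ratios of 7-day to Ctrl, at a mean of at least 5 CPM, and the 5 genes of highest r per member. Exceptions are named as such. Positions are from GENCODE 44 and promoters from RefSeq, where 8 of 10 members matched and *CCL2* and *CCL5* did not. The steps were tested on simulated data. Alternatives were other scaling, means over cells, thinning, mitochondrial limits, doublets, proliferating cells, the top 5% of cells, parts of the library, other fold and detection limits, and Spearman's rho. Python 3.11.15, numpy 2.4.6 and scipy 1.17.1 were used.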

Additional observations from a re-analysis of the deposited data

Results flagged for a closer look

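For 6 members, the level relative to Ctrl lay on opposite sides at 1-day and at 7-day, with counting intervals that exclude 0 on both sides. Their log2 ratios to Ctrl were -1.40 at 1-day and 1.66 at 7-day for *CXCL1*, -1.49 and 3.18 for *CXCL2*, -2.75 and 1.99 for *CXCL3*, -4.03 and 0.73 for *CXCL5*, -1.11 and 1.19 for *CXCL6*, and -0.28 and 1.50 for *CCL20*. With 1 library per time point, the difference was not tested, and both ratios share the Ctrl library. Of these, *CXCL5* at 7-day was -0.43 when cells with at least 2 UMIs of *MKI67* and *TOP2A* were left out.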

How the results depend on the processing

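No paired analysis was possible because there was 1 library per time point. Intervals and floors cover counting error only, and the number of libraries is the main limit. The summed log2 ratios to Ctrl (-0.70, 0.32 and 2.33 from 1-day to 7-day) kept their direction except without cells that hold at least 2 UMIs of *MKI67* and *TOP2A*, where they were -1.40, -0.16 and 1.90. In other settings the values that left the counting interval were, at 1-day, -0.61 with median-of-ratios scaling, -0.75 without the top 5% of cells by summed member UMIs, -0.44 and -0.96 in the first and second part of the cells, and -0.75 as a mean over cells. At 3-day they were 0.36 with a 10% mitochondrial limit, 0.46 without the top 5% of cells, and 0.53 and 0.10 in the parts. At 7-day they were 2.27 with median-of-ratios scaling, 2.36 with the 10% limit, 2.58 without the top 5% of cells, 2.23 and 2.40 in the parts, and 2.27 as a mean over cells.

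The number of members at least 2-fold above Ctrl at 1-day was 1 in place of 2 without the top 5% of cells and in the second part of the cells, where *CCL2* had too few UMIs for a fold of 2 against the floor of 3 counts. At 3-day it was 4 in place of 2 without the top 5% of cells. At 7-day it was 5 in place of 8 without the cells with *MKI67* and *TOP2A* UMIs, and 4 at a limit of 4-fold. The causes were not tested. The median share of 7-day cells with a UMI was 35.3%, and 50.4% without thinning and 18.6% with at least 2 UMIs. The share of *CXCL8* UMIs was 12.8% in the top 10 cells and 9.05% in the top 1% of 7-day cells. That of *CCL5* was 44.0% and 34.2%, and 73.5% in the top 5% after thinning. For *CXCL8* with *CXCL1* and *CCL2* with *CCL5*, r at 7-day stayed within the interval of its main value in the 4 alternatives run.

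Without the cells with *MKI67* and *TOP2A* UMIs, *CXCL2* at 3-day was -0.15 log2 units from Ctrl, *CXCL5* at 7-day -0.43, and r was -0.022 for *CXCL2* and -0.0148 for *CXCL3* with *CXCL6* in Ctrl and -0.0043 for *CCL5* with *CCL20* at 3-day. *CXCL3* at 3-day was 0.10 in the first part of the cells. Of the genes of highest r at 7-day, the sign changed at 3-day and 1-day for *ADGRL1* with *CXCL2* (-0.0067 and -0.0162) and, with *CXCL5*, for *CITED2* (-0.052 and -0.0193) and *NLRP7* (-0.0273 and -0.0115). At 1-day it changed for *HACE1* with *CXCL5* (-0.0138) and *BIRC3* with *CXCL3* (-0.024). It did so with *CCL2* for *RFTN1*, *CLDN18* and *SERPINA1* (-0.00345, -0.00704 and -0.0103), and with *CCL5* for *CLDN18* and *MMP10* (-0.0094 and -0.0122). At 3-day it changed for *DBF4* with *CXCL6* (-0.0603). *CXCL5*, *CCL2*, *CCL5* and *CXCL3* were found in only 4, 4, 7 and 18 of 900 thinned 1-day cells. At 3-day *CXCL5* was found in 15 of 677. These counts are under the 20 cells required for pairs of members, so that the r values of these members there cannot show a reversal.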
